A study of Mus musculus with 13 samples.

Results

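Mitochondrial DNA CpGs are the CpGs that the deposited tables place on chromosome MT. They were chosen by position alone, and 25 of the 3340630 CpGs with at least 1 read in any library met this rule. CpG methylation was measured by reduced representation bisulfite sequencing (RRBS), which cuts genomic DNA with a restriction enzyme and reads cytosines near the cuts after bisulfite has converted unmethylated ones. The 13 mouse libraries were 2 of female induced pluripotent stem cells (iPSCs) labelled XaXa, with a pair of active X chromosomes, 4 of female iPSCs labelled XO, with a single X, and 3 of male iPSCs. The others were 2 of male embryonic fibroblasts (MEFs) and 1 each of male cells that are SSEA1 negative or SSEA1 positive during reprogramming, SSEA1 being an antigen that pluripotent mouse cells carry on their surface. Feeder cells had been removed from the iPSCs, per the labels' protocols. The labels name no strain, age, reprogramming factor or clone, and nothing in them says which libraries came from separate cultures, so p-values speak only of the scatter among libraries, which may be technical in part.

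Mitochondrial DNA is a small circular genome present in many copies per cell and packed without nucleosomes. It encodes subunits of the respiratory chain together with the ribosomal and transfer RNAs that translate them. Whether it carries CpG methylation is debated, and levels reported for it are low. An unconverted cytosine and a methylated one read alike, so the level on MT adds the cytosines that bisulfite left unconverted to any that were methylated, and the data do not split the sum.

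The 25 CpGs lay between 1871 and 6390 of MT (mm9, counted from 1). By the general map of the mouse mitochondrial genome, not by an annotation of the files' build, 12 lay in mt-Rnr2, which encodes the large mitochondrial ribosomal RNA. Another 5 lay in mt-Nd1, a subunit of respiratory complex I, and 8 in mt-Co1, the catalytic subunit of complex IV. The tables give 5 bases around each CpG. For 8 CpGs these held CCGG, the sequence cut by MspI, the usual RRBS enzyme, which the labels do not name. These 8 are shown because RRBS reads begin at such cuts. They are written on the plus strand with the CpG in capitals:
MT 1871 to 1872, mt-Rnr2: acCGg
MT 2520 to 2521, mt-Rnr2: acCGg
MT 3333 to 3334, mt-Nd1: acCGg
MT 3401 to 3402, mt-Nd1: cCGgc
MT 5726 to 5727, mt-Co1: gcCGg
MT 6113 to 6114, mt-Co1: tcCGg
MT 6275 to 6276, mt-Co1: acCGg
MT 6389 to 6390, mt-Co1: cCGga

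The other 17 CpGs lay 6 to 90 bases from the nearest of these. The ones on which results below turn are shown in the same way:
MT 2567 to 2568, mt-Rnr2: taCGa
MT 2605 to 2606, mt-Rnr2: agCGc
MT 6231 to 6232, mt-Co1: aCGag
MT 6263 to 6264, mt-Co1: tCGca
MT 6311 to 6312, mt-Co1: caCGg

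Some libraries stood apart from their labels before any mitochondrial value was taken. Over CpGs read in every library, the ratio of median X depth to median autosomal depth, relative to the mean of male iPSCs, was 1.42 and 1.51 in XaXa 7 and 8 and 1.16 to 1.33 in the libraries labelled XO. Among the XO libraries XO 6 was at 1.16, beside 1.17 in both male SSEA1 libraries. The ratio was 1.57 in the library labelled male MEF 5 and 1.07 in MEF 4. Y reads were 0.0219% of autosomal reads in MEF 5, below every other library, and 0.0913% in MEF 4. Total CpG reads ranged from 4784488 (XO 9) to 143148634 (XaXa 8). Libraries are therefore named by label, and the differences between groups are given without MEF 5, or with XO 6 as the only XO library, too.

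Mitochondrial reads came almost wholly from 1 short part of mt-Co1. Of 706920 reads summed over CpGs and libraries, 98.7% lay on the 8 CpGs of mt-Co1, 0.805% on mt-Nd1 and 0.498% on mt-Rnr2. The CpG at 6275 alone held 37.0%, the one at 6263 held 27.9%, the one at 6389 held 20.5% and the one at 6311 held 9.50%. A read that spans several of these CpGs counts at each. Together they held 95.5% to 98.3% of mitochondrial reads in the 9 iPSC libraries and 55.0% to 59.04% in the MEF and SSEA1 libraries.

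The CpGs read differed between these 2 kinds of library. Each iPSC library had reads at 19 mitochondrial CpGs and each MEF or SSEA1 library at 21, and 15 were read in all 13. The 6 CpGs read only in MEF and SSEA1 libraries lay 43 to 90 bases from a CCGG, whereas no CpG read in an iPSC library lay more than 41 bases away. The 4 CpGs read only in iPSCs lay at or between the CCGG pair of mt-Nd1. Here plus-strand reads at 3333 numbered 43 to 653 in iPSC libraries and 0 in all 4 others. On autosomes too, CpGs with CCGG made up 44.8% to 49.7% of CpGs read in iPSC libraries and 34.1% to 34.9% in the others. The kind of library and the cell type cannot be told apart, since all iPSC libraries are of 1 kind and all MEF and SSEA1 libraries of the other.

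**Figure D1:**
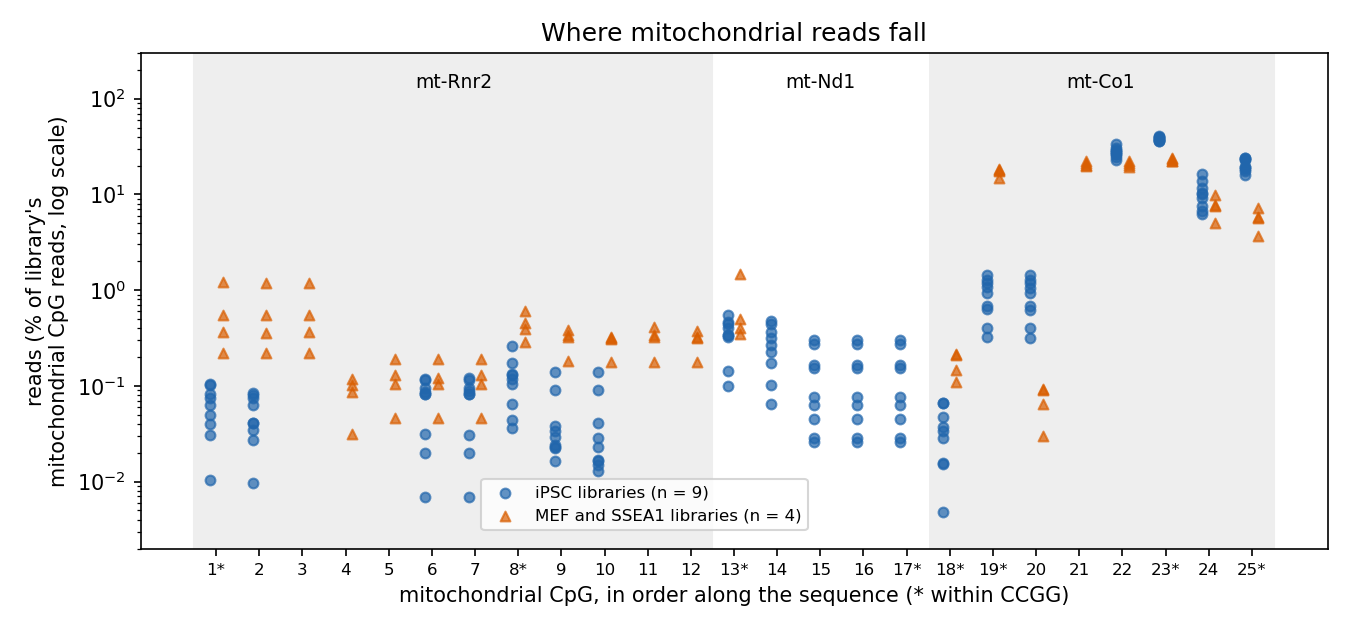
Reads at each of the 25 mitochondrial CpGs as a percent of a library's mitochondrial CpG reads (log scale), in order along the sequence, with CpGs within CCGG marked by an asterisk. Blue circles are the 9 iPSC libraries and orange triangles the 4 MEF and SSEA1 libraries. The mt-Co1 CpGs hold most reads in both, and 10 CpGs are read in 1 kind of library only.

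The level, methylated reads as a percent of all reads summed over mitochondrial CpGs, was under 0.4% in every iPSC library. It was 0.253% in XaXa 7 and 0.345% in XaXa 8, and 0.210%, 0.232%, 0.228% and 0.192% in XO 3, 5, 6 and 9. It was 0.224%, 0.222% and 0.233% in male iPSC 1, 2 and 4. XaXa 8 stood highest of the 9, and its 95% Wilson interval of 0.316% to 0.376% lay above that of male iPSC 4, 0.216% to 0.252%, the library with the most mitochondrial reads. Intervals here and below cover counting error only and are too narrow, since reads are counted at several CpGs and PCR copies cannot be told apart.

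Levels outside the iPSCs were higher. MEF 4 was at 0.833% (95% Wilson interval 0.642% to 1.08%) and MEF 5 at 1.35% (1.21% to 1.52%). The SSEA1 negative library was at 0.436% (0.302% to 0.629%) and the SSEA1 positive library at 0.343% (0.249% to 0.472%). The SSEA1 libraries thus lay between the MEFs and most iPSCs, with the SSEA1 positive library at the level of XaXa 8. On the 15 CpGs read in every library the levels were 0.693% in MEF 4, 1.27% in MEF 5, 0.429% for SSEA1 negative and 0.269% for SSEA1 positive cells, and 0.194% to 0.342% in iPSCs.

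**Figure D2:**
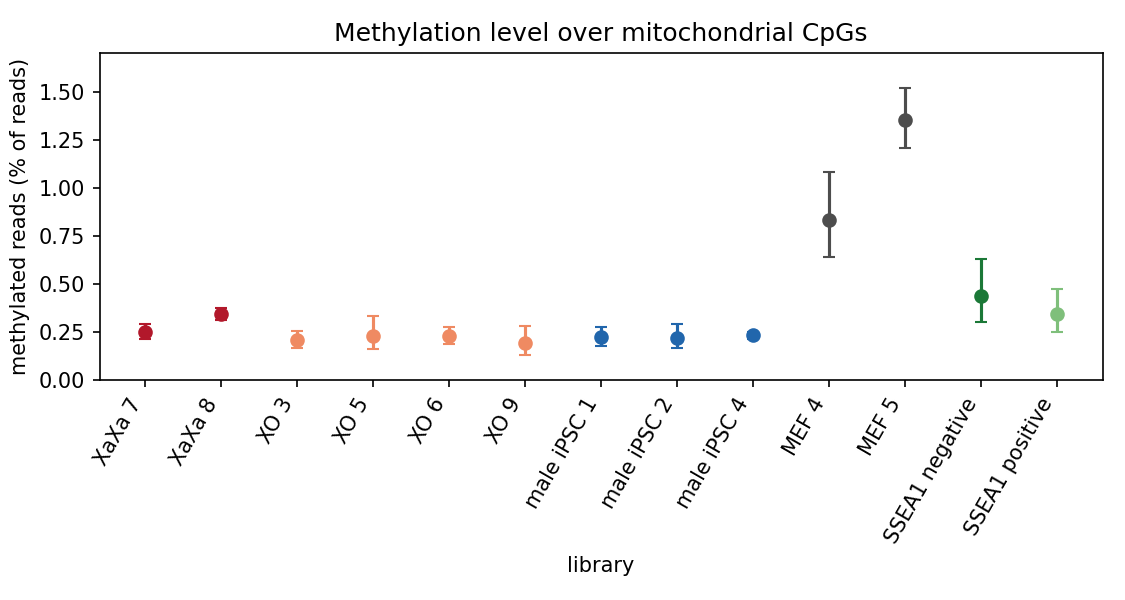
Methylated reads as a percent of all reads over mitochondrial CpGs in each of the 13 libraries, with 95% Wilson intervals, coloured by group. The 9 iPSC libraries sit between 0.192% and 0.345%, the MEF libraries at 0.833% and 1.35%.

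For level, the number of libraries cannot carry group differences past 0.05 except in XO against male iPSC. There the smallest value of the exact permutation p was 0.0286. The XaXa mean was 0.299% ± 0.0650 (SD, n = 2), against 0.216% ± 0.0182 (SD, n = 4) for XO libraries and 0.227% ± 0.00609 (SD, n = 3) for those of male iPSCs. Both XaXa libraries lay above all XO and all male iPSC libraries. The difference from XO was 0.0830 points (exact two-sided permutation p = 0.0667) and that from male iPSC 0.0720 points (exact permutation p = 0.1), each the smallest p the splits allow. With each CpG weighted alike over the 7 that had 10 reads in every library, these differences were -0.0382 and -0.0425 points. With depth capped at 200 reads per CpG they were -0.0753 and 0.0284 points, so the sign depended on how CpGs were weighted. Without XaXa 8 they were 0.0370 and 0.0260 points, and with XO 6 as the only XO library the first was 0.0706.

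XO and male iPSC libraries overlapped, with a difference of -0.0110 points (exact permutation p = 0.4). With XO 6 as the only XO library it was 0.00140 points. Male iPSCs lay below both MEF libraries, whose mean was 1.09% ± 0.368 (SD, n = 2), with a difference of -0.866 points (p = 0.1 by the exact permutation test, its smallest value). Without MEF 5 this difference was -0.606 points. Adjusted by Benjamini-Hochberg over the 4 comparisons of level and 4 of depth, the exact permutation p-values for level were 0.267, 0.267, 0.5 and 0.267 in the order given.

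For single CpGs, a quasi-binomial model was fitted to all CpGs that reached 10 reads in every one of the 11 libraries from the 4 replicated groups. Of the 23687 CpGs tested 9 were mitochondrial, which are those at 2488, 2502, 2520, 3333, 6113, 6263, 6275, 6311 and 6389. In XaXa against XO, 2 of the 9 were higher, beside 0.207% of all CpGs tested, and 1 was lower, beside 76.4%. In XaXa against male iPSC, 2 were higher, beside 0.832% of all CpGs, and 0 lower, beside 69.7% (limma: 0 lower; 0 at an unadjusted p under 0.05). The mt-Co1 CpGs called higher, at 6275 and 6389, thus moved against the direction of most CpGs tested, by under 0.2 points. Their means were 0.174% and 0.259% in XO and 0.217% and 0.233% in male iPSC, so they had little room to fall. They held 11613 to 57428 reads per XaXa library, where the model asked for 10. The shares over all CpGs are therefore not a matched background for them. Because most CpGs pass in these comparisons, the adjusted p lies close to the unadjusted one.

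The CpG at 6275, the deepest, was one of the higher ones in both comparisons. Its level was 0.264% and 0.357% in XaXa 7 and 8, 0.170%, 0.208%, 0.219% and 0.100% in XO 3, 5, 6 and 9, and 0.229%, 0.198% and 0.226% in male iPSC 1, 2 and 4. Both XaXa libraries lay above all other iPSC libraries here. The pooled difference was 0.142 points from XO (quasi-binomial model, adjusted p = 0.00666) and 0.104 points from male iPSC (adjusted p = 0.0091). The CpG at 6389 followed, at 0.293% and 0.391% in XaXa against 0.175% to 0.367% in XO, which overlapped, and 0.228% to 0.237% in male iPSC. Its adjusted p in the same model was 0.0128 and 0.00541. Without XaXa 8 neither CpG was called in either comparison, without male iPSC 4 neither was called against male iPSC, and without XO 3 the CpG at 6389 was not called against XO. With XO 6 as the only XO library the model called none of the 9 against XO, and none at an unadjusted p under 0.05. Tested with limma on log2 ratios, neither was called in either comparison. The 2 mitochondrial CpGs it called higher against male iPSC, at 2488 and 2502, had no methylated read in any iPSC library.

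The CpG at 6113 was the lower one in XaXa against XO. It had 0 of 416 and 1 of 476 reads methylated in XaXa 7 and 8, and 4 of 503, 2 of 129, 5 of 411 and 0 of 54 in XO 3, 5, 6 and 9, so the groups overlapped at 0. The pooled difference was -0.891 points (quasi-binomial model, adjusted p = 0.0279). It rests on 12 methylated reads in all. limma called it too, but the model did not without XO 6, XaXa 7 or XaXa 8, nor with a minimum of 20 reads per CpG. In XO against male iPSC the model called 0 of the 9 higher, beside 0.173% of all CpGs, and 0 lower, beside 0.0296%. At an unadjusted p under 0.05 the model had 1, and limma called 0 with 1 at an unadjusted p under 0.05. With XO 6 as the only XO library the model called 0 and had 0 at an unadjusted p under 0.05.

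In male iPSC against MEF 5 of the 9 were lower, beside 15% of all CpGs tested, and 0 were higher, beside 4.32% (model: 0 higher at an unadjusted p under 0.05; limma: 0 higher). The CpG at 6263, read on the minus strand only, was at 0.180%, 0.217% and 0.217% in male iPSC 1, 2 and 4 and at 0.806% and 1.55% in MEF 4 and 5 (quasi-binomial model, adjusted p = 2.83e-05). The one at 6275 was at 0.593% and 1.27% in the MEFs (adjusted p = 0.000345), that at 6311 at 0.382% and 1.69% (adjusted p = 0.00293) and that at 6389 at 0.765% and 0.935% (adjusted p = 0.0175). Each of these 4 was above every male iPSC library in both MEFs. They were picked by the model in this same comparison, so that order adds no support to the calls. Fitted on these 2 groups alone, the model called only 6263 and 6275, and limma on all 4 groups did not call 6311. They are not separate measurements. Minus-strand reads numbered 196898 at 6263 and 197110 at 6275, 12 bases away, and plus-strand reads 64798 at 6275 and 64606 at 6311, so most reads at one of each pair also cover the other. Without MEF 5 only the CpG at 2520 was called, and without MEF 4 the 4 mt-Co1 CpGs were.

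Among the libraries outside the iPSCs, MEF 5 had the highest mt-Co1 level. Over the 8 mt-Co1 CpGs it was 1.31% (95% Wilson interval 1.16% to 1.48%) in MEF 5, 0.516% (0.366% to 0.728%) in MEF 4, 0.421% (0.288% to 0.617%) in the SSEA1 negative and 0.344% (0.249% to 0.476%) in the SSEA1 positive library. The intervals of MEF 4 and both SSEA1 libraries overlapped. In the iPSC libraries mt-Co1 was at 0.196% to 0.343%. The CpG at 6231, which is among the 8, was read only in MEF and SSEA1 libraries. It had 72 of 4503 reads methylated in MEF 5 and 6 of 1379 in MEF 4. In the SSEA1 negative and positive libraries it had 6 of 1446 and 13 of 2124. Minus-strand reads at 6275 numbered 4506 in MEF 5 and 1380 in MEF 4, so most reads at 6231 also cover 6275. The order at 6231 is therefore not a separate measurement.

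The ribosomal RNA gene showed another pattern. Over the 12 CpGs of mt-Rnr2, 23 of 429 reads were methylated in MEF 4 (5.36%, 95% Wilson interval 3.60% to 7.92%) and 17 of 520 in MEF 5 (3.27%, 2.05% to 5.17%). The SSEA1 negative library had 2 of 227 and the SSEA1 positive library 1 of 311. Of the 9 iPSC libraries 8 had 0 methylated reads, from 59 to 238 reads each, which allows a level of up to 1.26% in the deepest of them and 5.08% in the shallowest, and male iPSC 4 had 2 of 741. The iPSC libraries read only 7 of the 12 CpGs, which are those read in all 13 libraries. On these 7 MEF 4 had 9 of 275 reads methylated (3.27%, 95% Wilson interval 1.73% to 6.10%) and MEF 5 had 12 of 330 (3.64%, 2.09% to 6.25%), so the order of the MEFs turned. The SSEA1 negative library had 1 of 144 and the SSEA1 positive library 0 of 193 there. Reads are few, so each level is loose, but both MEF libraries stood above the other libraries on either set.

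Within mt-Rnr2, 20 of the 23 methylated counts of MEF 4 fell on 3 of the 5 CpGs at and after the CCGG at 2520, and the others on 1871 and 1928. A read that spans several of these CpGs counts at each. The counts at 2520, 2567 and 2605 may therefore come from the same few reads and are not separate measurements. On the plus strand 7 of 28 reads were methylated at 2520, 0 of 26 at 2535, 0 of 21 at 2552, 7 of 28 at 2567 and 6 of 25 at 2605. MEF 5 had 2 of 38 at 2520, 3 of 38 at 2535 and 2 of 37 at each of 2552, 2567 and 2605. MEF 4 thus had no methylated read at the middle CpGs, 2535 and 2552, while MEF 5 had some at all 5. In MEF 4 only 21 reads counted at 2552, against 28 at both 2520 and 2567. Whether the reads without a count at 2552 were the methylated ones cannot be told. Nuclear copies of mitochondrial sequence are known in mice, and whether some of the mt-Rnr2 reads came from them was not tested. Over all libraries the CpGs at 2567 and 2605, chosen for mention after their values were seen, had the highest levels of the 25, at 8.20% and 7.69%, and only MEF and SSEA1 libraries read them. At 2520 male iPSC and MEF differed in the model (0.366% ± 0.634, SD, n = 3, against 11.04% ± 8.54, SD, n = 2; quasi-binomial model, adjusted p = 0.0120), but not when fitted on these 2 groups alone or without MEF 4.

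The mt-Nd1 CpGs were low throughout. Of 5438 reads in iPSC libraries 17 were methylated (0.313%), 12 of them in XaXa 8, which had 2655 of these reads. MEF and SSEA1 libraries had 1 methylated read of 255, all at 3333. At 3333 the level was 0% in all 4 XO libraries and in XaXa 7, 0.296% in XaXa 8 and 0% to 0.248% in male iPSC, and no comparison called it.

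Strands were read very unequally. The minus strand held 65.5% (XaXa 8) to 85.9% (male iPSC 4) of mitochondrial reads in iPSC libraries and 90.2% to 93.5% in the MEF and SSEA1 libraries, without overlap. Plus-strand reads at the left CCGG and minus-strand reads at the right CCGG of a stretch give the balance at its ends. For the 162 bases from 6113 to 6275 the minus strand made up 95.2% to 98.6% in iPSC libraries and 99.4% to 99.8% in the others. Male iPSC 4, for example, had 1931 plus-strand reads at 6113 and 86378 minus-strand reads at 6275. For the 114 bases from 6275 to 6389 it made up 53.1% to 79.5% in iPSC libraries and 72.1% to 74.1% in the others. For the 68 bases from 3333 to 3401, read in iPSCs only, it made up 20.4% to 40.4%. Among these 3 stretches the minus share was thus higher the longer the stretch in each iPSC library. The longest, the 387 bases from 5726 to 6113, went against that order. Its minus share was 0% in all 9 iPSC libraries, from 7 to 44 plus-strand reads each, and 98.6% to 99.4% in the MEF and SSEA1 libraries.

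The reads also divided differently between the ends in the 2 kinds of library. Minus-strand reads at 6275 were 1.12 to 1.91 times those at 6389 in iPSC libraries and 2.73 to 6.08 times in MEF and SSEA1 libraries. At 6113 minus-strand reads numbered 1003, 3622, 1167 and 1912 in MEF 4, MEF 5 and the SSEA1 negative and positive libraries, and 0 in all 9 iPSC libraries. The level at 6113 therefore comes from the plus strand in iPSCs and nearly all from the minus strand in the others.

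**Figure D3:**
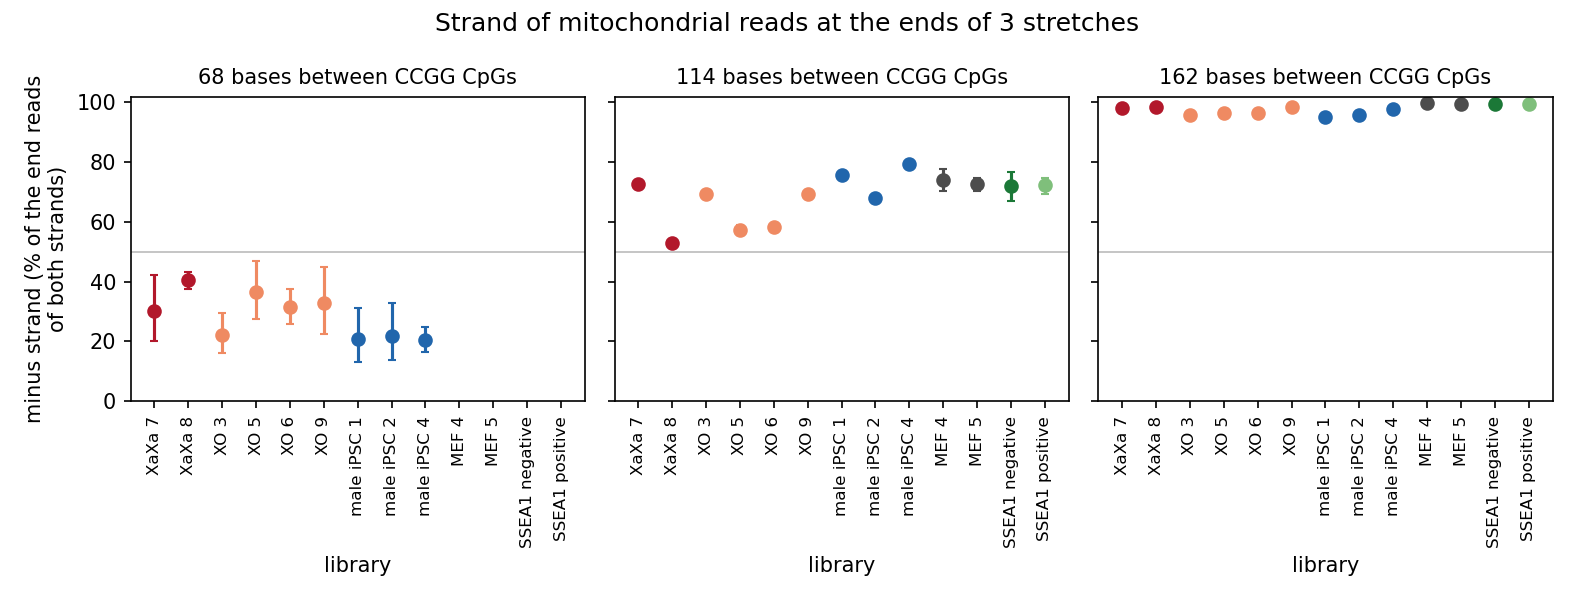
Share of minus-strand reads among the end reads of 3 mitochondrial stretches between neighbouring CCGG CpGs, by library, with 95% Wilson intervals; the grey line marks equal strands. The share is 20.4% to 40.4% for 68 bases (iPSC libraries only), 53.1% to 79.5% for 114 bases and above 95% for 162 bases.

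The pooled levels of plus-strand and minus-strand reads differed mainly in the MEFs. In iPSC libraries the plus-strand level was 0.196% to 0.396% and the minus-strand level 0.184% to 0.317%. In MEF 4 they were 3.63% and 0.528%, in MEF 5 2.70% and 1.26%, in the SSEA1 negative library 0.718% and 0.416% and in the SSEA1 positive library 0.113% and 0.363%. MEF 4 had 24 methylated plus-strand reads. Most were counted in mt-Rnr2, with 7 at 2520, 7 at 2567 and 6 at 2605. At 6275 in mt-Co1 it had 0 of 137 plus-strand and 9 of 1380 minus-strand reads methylated. MEF 5 had 9 of 445 and 54 of 4506 there. At 6311 MEF 4 had 1 of 137 and 1 of 386, and MEF 5 had 13 of 438 and 14 of 1159. Pooled over mitochondrial CpGs, the plus strand was higher in 12 of 13 libraries, by a mean of 0.398 points ± 0.904 (SD, n = 13; exact paired permutation p = 0.0444). MEF 4 carried much of this mean. Without MEF 4 it was 0.173 points (exact paired permutation p = 0.0889), without MEF 5 0.311 points (exact paired permutation p = 0.0889) and without both 0.0579 points, higher in 10 of 11 (exact paired permutation p = 0.178). The difference no longer reached p under 0.05 when XO 3, XO 5, XO 6, XaXa 8, male iPSC 1, male iPSC 4 or the SSEA1 negative library was left out either. Strands cover different CpGs, and on CpGs with at least 10 reads on each strand in a library the mean was 0.229 points, higher in 8 of 13 (exact paired permutation p = 0.384). Summed over libraries, the CpGs with at least 100 reads per strand that differed most were 2520, at 3.22% on the plus and 0.312% on the minus strand, 6311, at 0.350% and 0.708%, and 6275, at 0.304% and 0.267%. At 6311 all minus-strand reads came from MEF and SSEA1 libraries. Summed over those libraries the order was the other, with 14 of 965 plus-strand reads methylated (1.45%) and 18 of 2541 minus-strand reads (0.708%). That order came from the MEFs, and MEF 5 gave 13 of the 14 methylated plus-strand reads. The SSEA1 libraries had 0 of 390 plus-strand and 3 of 996 minus-strand reads methylated. At 2520 the iPSC libraries had 2 of 250 and 0 of 269, and the MEFs 9 of 66 and 1 of 35.

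Depth on mitochondrial CpGs varied about as much within groups as between them. As a percent of reads at autosomal CpGs it was 0.340% in XaXa 7 and 0.106% in XaXa 8, 0.232%, 0.04996%, 0.0455% and 0.295% in XO 3, 5, 6 and 9, and 0.186%, 0.308% and 0.482% in male iPSC 1, 2 and 4. In MEF 4 and 5 it was 0.0611% and 0.0846%. The SSEA1 negative library had 0.0367% and the SSEA1 positive library 0.0643%. Depth in XO 5 and XO 6 was thus that of the MEF and SSEA1 libraries, and in XO 3 and XO 9 that of the male iPSCs. XaXa libraries averaged 0.223% ± 0.165 (SD, n = 2), XO libraries 0.156% ± 0.127 (SD, n = 4), male iPSCs 0.325% ± 0.149 (SD, n = 3) and MEFs 0.0728% ± 0.0166 (SD, n = 2).

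No comparison of depth passed 0.05. The differences were 0.0676 points for XaXa minus XO (exact permutation p = 0.467), -0.102 for XaXa minus male iPSC (exact permutation p = 0.5), -0.170 for XO minus male iPSC (exact permutation p = 0.2) and 0.252 for male iPSC minus MEF (exact permutation p = 0.2). Adjusted over the 8 tests, these exact permutation values were 0.5, 0.5, 0.32 and 0.32. All male iPSC libraries lay above both MEF libraries, 4.47 times in the mean, and the difference was 0.264 points without MEF 5. With depth capped at 200 reads per CpG it was -0.00123 points. The CpGs at 6263, 6275, 6311 and 6389 had over 200 reads in every library, so the capped measure cannot compare their depth. The ratio of median depth over CpGs with at least 10 reads in every library kept the main direction, higher by 51.4 in male iPSCs. With XO 6 as the only XO library the XaXa minus XO difference was 0.178 points and the XO minus male iPSC difference -0.280. More copies of mitochondrial DNA per cell and a different mix of fragments in the library cannot be told apart here.

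**Figure D4:**
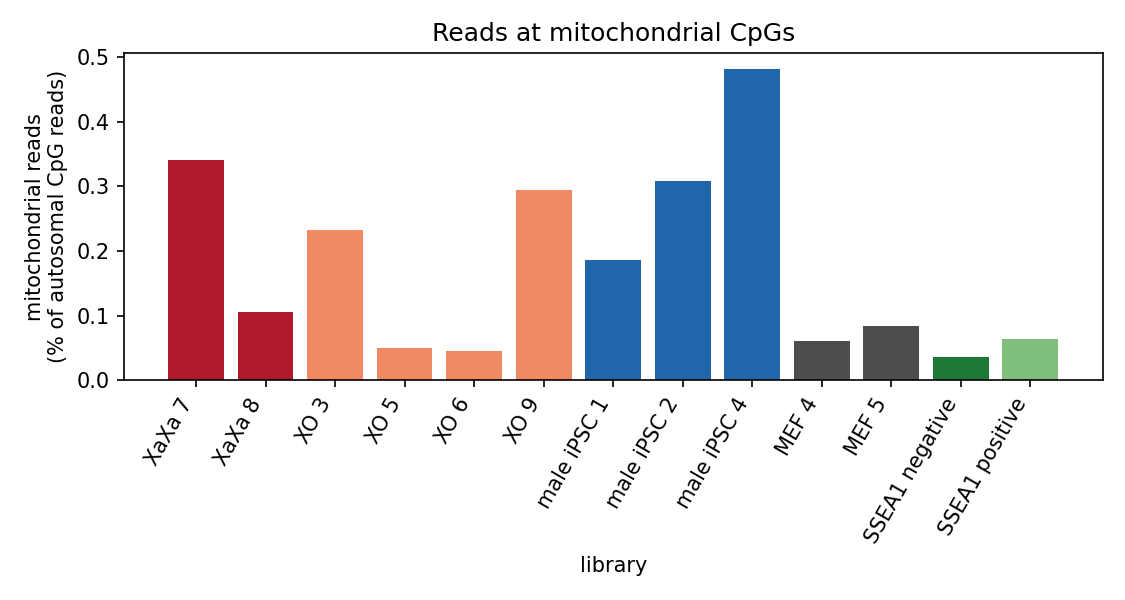
Reads at mitochondrial CpGs as a percent of reads at autosomal CpGs in each of the 13 libraries, coloured by group. Libraries of one iPSC group differ several-fold (XO from 0.0455% to 0.295%), while the MEF and SSEA1 libraries sit between 0.0367% and 0.0846%.

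The pooled mitochondrial level gives an estimate of how far incomplete conversion could move the autosomal levels if it were alike on both. It rests on mt-Co1, which held 98.7% of reads. It is not a bound where mitochondrial CpGs differ, as in the MEFs, where mt-Rnr2 was at 5.36% (MEF 4) and 3.27% (MEF 5). For the autosomal level, 20653 CpGs that reached 10 reads in every library were weighted alike. Taking the whole mitochondrial level as unconverted reads and removing that share changed the XaXa mean from 33.8% to 33.6% ± 4.01 (SD, n = 2), the XO mean from 55.4% to 55.3% ± 3.71 (SD, n = 4), the male iPSC mean from 54.6% to 54.5% ± 2.46 (SD, n = 3) and the MEF mean from 61.9% to 61.5% ± 0.865 (SD, n = 2). The XaXa minus XO difference was -21.8 points after this step (exact permutation p = 0.0667) and -21.7 before. The XaXa minus male iPSC difference was -20.96 after (exact permutation p = 0.1) and -20.9 before, and the male iPSC minus MEF difference -6.97 after (exact permutation p = 0.1) and -7.29 before. Without MEF 5 this last difference was -6.36 points after the step. The XO minus male iPSC difference was 0.823 and 0.815 points (exact permutation p = 0.714 for each). With XO 6 as the only XO library the corrected differences were -22.7 points for XaXa minus XO and 1.72 for XO minus male iPSC.

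Mitochondrial levels were far below those of the CpG-densest autosomal windows, where methylation is also sparse. Over 11143 windows of 1 kb with at least 40 CpGs read in any library, the level was 4.39% in XaXa 8 and 7.12% in XaXa 7, the 2 iPSC libraries with the highest mitochondrial level, and 7.17% to 11.6% in the other iPSC libraries. Across the 9 iPSC libraries the correlation was negative (Pearson r = -0.791, permutation p = 0.0102; Spearman rho = -0.767, permutation p = 0.0221; r = -0.700 without XaXa 8 and XO 9). Within the 7 XO and male iPSC libraries it did not pass 0.05 (Pearson r = -0.341, permutation p = 0.471; Spearman rho = -0.5, permutation p = 0.265; r = -0.186 without XO 3 and XO 9), so the relation over 9 rests on the XaXa libraries. Adjusted by Benjamini-Hochberg over the 5 relations computed, the Pearson permutation p-values were 0.038 and 0.471 and the Spearman ones 0.111 and 0.370, so over the 9 libraries the rank correlation did not pass. These 2 subsets were not planned. The planned correlation over all 13 libraries was positive (Pearson r = 0.329, permutation p = 0.271; r = 0.0601 without MEF 4 and MEF 5). With windows of at least 60 CpGs it was 0.637 (Pearson permutation p = 0.0152, adjusted 0.038; Spearman rho = 0.313, permutation p = 0.296; r = 0.247 without both MEFs). The sign thus depended on the libraries taken, and no relation is read from it, since the MEFs form a separate cluster.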

How the data were processed

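Per the submitters' processing notes, reads were aligned with BSMAP to mm9; the sources used here name no trimming step, read length or duplicate removal. The deposited tables give for each CpG the authors' count of reads and of methylated reads, in all and by strand, and a methylation fraction, which was not used further. From these counts the level (methylated reads as a percent of reads) and the depth were computed for mitochondrial CpGs in 13 libraries. Gene names came from a hand-written map of mouse mitochondrial genes, since no annotation of mm9 was used. The members, lists and alternatives were chosen with earlier results of these data known.

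Group means were compared by exact two-sided permutation tests over libraries. Single CpGs were tested with a quasi-binomial model (R 4.3.3, limma 3.58.1 for squeezeVar) over 23687 CpGs with at least 10 reads in 11 libraries. The p-values were Benjamini-Hochberg adjusted over all these CpGs, and a CpG was called at an adjusted p under 0.05. The alternative test used limma on log2 ratios of methylated to unmethylated reads. Named are the 6 deepest CpGs, the 5 highest and 3 lowest in mean level among CpGs with at least 10 reads in every library, all those called, and the 3 with the largest strand difference among CpGs with at least 100 reads per strand. Mitochondrial reads per library ranged from 6429 to 280110. Intervals are 95% Wilson intervals, and the limit at 0 is 3 reads of the total. Tests used Python 3.11.15 with scipy 1.17.1.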

Additional observations from a re-analysis of the deposited data

Results flagged for a closer look

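Of 15 sets of values examined in the 4 XO libraries, 2 held a library far from the others, where chance flags about 1 set in 20. The plus-strand mitochondrial level of XO 9 was 0.196%, while the other XO libraries were at 0.293% to 0.309%. The gap was 0.859 of the whole range. The difference between its plus-strand and minus-strand level was 0.00465 points, against 0.0988 to 0.109 points in the other XO libraries, with a gap of 0.902 of the range. Both flags come from the same plus-strand value, which rests on 6 methylated reads of 3060, and XO 9 is the shallowest library of the series. Within these reads the CpG at 6275 had 1 of 1416 methylated on the plus strand and the CpG at 6311 had 5 of 1413. Counting error over those 6 reads is wide, with a 95% Wilson interval for the plus-strand level of 0.0899% to 0.427%, which holds the other XO values.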

How the results depend on the processing

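Depth limits the test of single CpGs: 9 of the 25 CpGs had 10 reads in each of 11 libraries, and no split of these groups except XO against male iPSC reaches p under 0.05 at its extreme. No paired analysis was possible because the groups compared share fewer than 2 replicate numbers in the labels. For the mitochondrial level 56 of 61 alternatives, for depth 47 of 53 and for autosomal level 27 of 29 held direction and side of the threshold. Except in XO against male iPSC the side could not change, so these counts speak of direction only. The count of called CpGs was within 1.5 times in 35 of 45, but exactly the same CpGs were called in 27 of 45, 13 of these being the XO against male iPSC comparison with none.

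Weighting the 7 common CpGs alike gave -0.0382 points (XaXa minus XO) and -0.0425 (XaXa minus male iPSC) for level. Capping depth at 200 reads gave -0.0753 for XaXa minus XO and 0.104 for XO minus male iPSC. For depth it gave -0.00686 (XaXa minus XO), 0.000196 (XO minus male iPSC) and -0.00123 (male iPSC minus MEF). These capped depths cannot compare the CpGs at 6263, 6275, 6311 and 6389, which exceed the cap in every library. Without XO 3, 5 and 9, XO minus male iPSC level was 0.00140 and 0 CpGs were called in XaXa minus XO. The ratio of median depth put XaXa 4.11 above male iPSC. The cause was not tested.

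Leaving out each library in turn gave level differences of 0.0370 to 0.129 (XaXa minus XO), 0.0260 to 0.118 (XaXa minus male iPSC), -0.0165 to -0.00328 (XO minus male iPSC) and -1.13 to -0.606 (male iPSC minus MEF). Depth differences were -0.0493 (without XaXa 7) to 0.184, -0.219 to 0.0148 (without XaXa 8), -0.239 to -0.0912 and 0.174 to 0.322 in that order. Autosomal XO minus male iPSC was -0.579 (without male iPSC 1) to 2.62, and -0.186 without XO 3. Called CpGs numbered 0 to 3, 0 to 2, 0 to 0 and 1 to 5. With limma 1 was called in XaXa minus XO. Asking for 10 points left 0, 0 and 1 (male iPSC minus MEF), and fitting 2 groups alone left 2 there.

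The strand difference was 0.229 on CpGs with 10 reads on each strand, 0.0579 without both MEFs and 0.173 to 0.452 leaving out each library. Against CpG-dense windows r was 0.329 over 13 libraries, 0.637 with windows of at least 60 CpGs, -0.791 over 9 iPSC and -0.341 over 7 XO and male iPSC libraries.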

Other observations

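In all, 3 mitochondrial CpGs had no methylated read in any library. The one at 2502 had 320 reads, which allows a level of up to 0.938%, the one at 3386 had 723 (up to 0.415%), and the one at 2477, read only in MEF and SSEA1 libraries, had 52 (up to 5.77%). The first and the last lie in mt-Rnr2 upstream of the CCGG at 2520 and were read on the minus strand only, as were the CpGs at 2430, with 1 of 39 reads methylated, and 2488, with 1 of 318.

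The plus-strand CpGs on the other side of that CCGG had 3 of 370 reads methylated at 2535 and 2 of 320 at 2552. Those at 2567 and 2605, read only in MEF and SSEA1 libraries, had 10 of 122 and 9 of 117. Of these methylated reads MEF 4 gave 7 and 6. The cause was not tested.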
